A study of Homo sapiens with 6 samples.

Results

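The genes of the NRF2 antioxidant response were followed across the deposited count table of T24, a line of human bladder cancer cells, after siRNA transfection. The set is a list of names, with no measured value in its rule: NFE2L2, which encodes NRF2, KEAP1, and 8 antioxidant targets, NQO1, HMOX1, GCLC, GCLM, TXNRD1, SRXN1, TXN and PRDX1. The list was drawn up with earlier results of these data known. These are 10 of the 58288 genes in the table, and 9 of them were among the 14415 genes with enough counts to be tested. SRXN1 was too low.

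NRF2 is a transcription factor that KEAP1 binds in the cytoplasm and hands to a CUL3 ubiquitin ligase for destruction. Oxidants and electrophiles modify KEAP1, NRF2 then accumulates, pairs with small MAF proteins and binds antioxidant response elements in genes for glutathione synthesis, thioredoxin reduction, quinone reduction and heme breakdown. NRF2 is thus controlled largely as a protein, so the mRNA of NFE2L2 is not a measure of its activity. BACH1 is a repressor that binds the same elements and is known above all for holding HMOX1 down.

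The libraries were labelled siControl, siRNA1 and siRNA2, called NC, si-circ235-1 and si-circ235-2 here, with 2 libraries each. All 6 came from T24 cells, and the siRNAs were directed at 2 sequences of circ_0000235 (circ235), a circular RNA made from the CCNY gene that the study examined as a sponge of miR-330-5p. Oligo dT beads were used to enrich mRNA, and the sequencing kept no strand. Circular RNAs lack a poly(A) tail and the table lists genes, so the knockdown of circ235 cannot be checked in these libraries. The replicates are called biological, but nothing says whether they were separate cultures, so p-values measure only the spread between these libraries, which may be technical.

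The libraries held 15373992 to 19912893 counts. The replicates of each condition differed by more than counting noise, so precision is set by having 2 libraries a condition rather than by depth. The line markers KRT8, KRT18, KRT7, CD44, VIM and AXL had means of 270 to 1711 CPM (counts per 1000000, scaled between libraries by TMM), whereas EPCAM had 1.96. Of the markers of differentiated urothelium, UPK1A, UPK2 and UPK3A were too low to be tested, GATA3 had a mean of 0.626 CPM and PPARG 38.6. Among the markers of leukocytes, endothelium, T cells, red cells and fibroblasts, PTPRC, CD3E and HBB had 0 counts in every library and COL1A1, the highest, had a mean of 0.88 CPM. Without TMM factors, the median over all genes of the log2 fold change moved to 0.25 in si-circ235-2 against NC and to 0.37 in si-circ235-2 against si-circ235-1, and the counts of genes called went from 2270 higher and 2260 lower to 3173 and 1294, and from 3047 higher and 2678 lower to 4534 and 1496. Calls of si-circ235-1 against NC went from 323 higher and 524 lower to 179 and 529, and to 1189 and 780 once a smooth dependence on transcript length and GC content was taken out of each library.

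The antioxidant response element carries the core TGACNNNGC, which was searched on both strands of the RefSeq promoter windows (GRCh38.p14, 250 bases before to 50 after a start site). Windows were found for 8 of the 10 genes, and HMOX1 and PRDX1 were not searched. 4 of their 11 windows, belonging to GCLM, TXNRD1 and KEAP1, held the core, compared with 13.3% of all 35116 windows. Every stretch with the core is shown, and capitals mark the core as it reads on the gene's strand. A link of the core to changes of these genes was not tested. The stretches lie at chr1:93909446-93909474 (minus strand) for GCLM, at chr12:104215670-104215698, chr12:104215761-104215789 and chr12:104286920-104286948 (plus strand) for TXNRD1, and at chr19:10502807-10502835 and chr19:10502784-10502812 (minus strand) for KEAP1. Counted from the start site, the first base of the core lay at -34 in GCLM, at -99, -8 and -102 in TXNRD1, and at -54 and -31 in KEAP1.
GCLM: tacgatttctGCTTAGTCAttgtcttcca
TXNRD1, first: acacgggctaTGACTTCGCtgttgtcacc
TXNRD1, second: gcgtccttcgGCTCCGTCAgttcccacag
TXNRD1, other start site: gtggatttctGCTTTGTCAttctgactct
KEAP1, first: acttttattgTGACACGGCgggcgcccgg
KEAP1, second: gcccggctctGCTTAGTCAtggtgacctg

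A match of letters is a description and not a binding site, and a window without the core says only that these letters are not in it. The microRNA of the study, miR-330-5p, is encoded at chr19:45639049-45639070 (minus strand), and its seed, bases 2 to 8, is shown in capitals.
miR-330-5p: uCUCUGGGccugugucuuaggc

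The 7-base word that pairs with this seed, CCCAGAG, was found in the 3' UTR of 0 of the 10 genes, whose 3' UTRs ran from 293 bases in PRDX1 to 3785 in GCLM. Over 19128 genes the word stood in 18.6% of the 3' UTRs.

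The first question was how each siRNA moved these genes against the control. In si-circ235-2 against NC, GCLM and TXNRD1 rose and TXN fell, while the other 6 genes tested did not pass the threshold, an adjusted p under 0.05 in edgeR's quasi-likelihood test. Over all genes tested, 15.7% were called higher and 15.7% lower in that comparison, so 3 of 9 is close to the background. In si-circ235-1 against NC, edgeR called 0 of the 9 genes, against a background of 2.24% higher and 3.64% lower. There 2 genes, HMOX1 and TXN, had an unadjusted edgeR p under 0.05, and DESeq2 called both. The median log2 fold change of the 9 genes was 0.36 in si-circ235-1 and -0.25 in si-circ235-2, beside medians near 0 over all genes.

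The second question was how the siRNAs differed from each other. In si-circ235-2 against si-circ235-1, HMOX1 was higher and NFE2L2, NQO1, TXN and PRDX1 were lower, so 5 of 9 genes were called. The background there was 21.1% higher and 18.6% lower. DESeq2 called 5 of the 9, the same genes, and SRXN1. The siRNA comparisons against NC share the NC libraries, so their values are given side by side below and are not independent of each other. In cultured cells as in any bulk sample, fewer cells of a kind and less RNA per cell cannot be told apart.

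**Figure D1:**
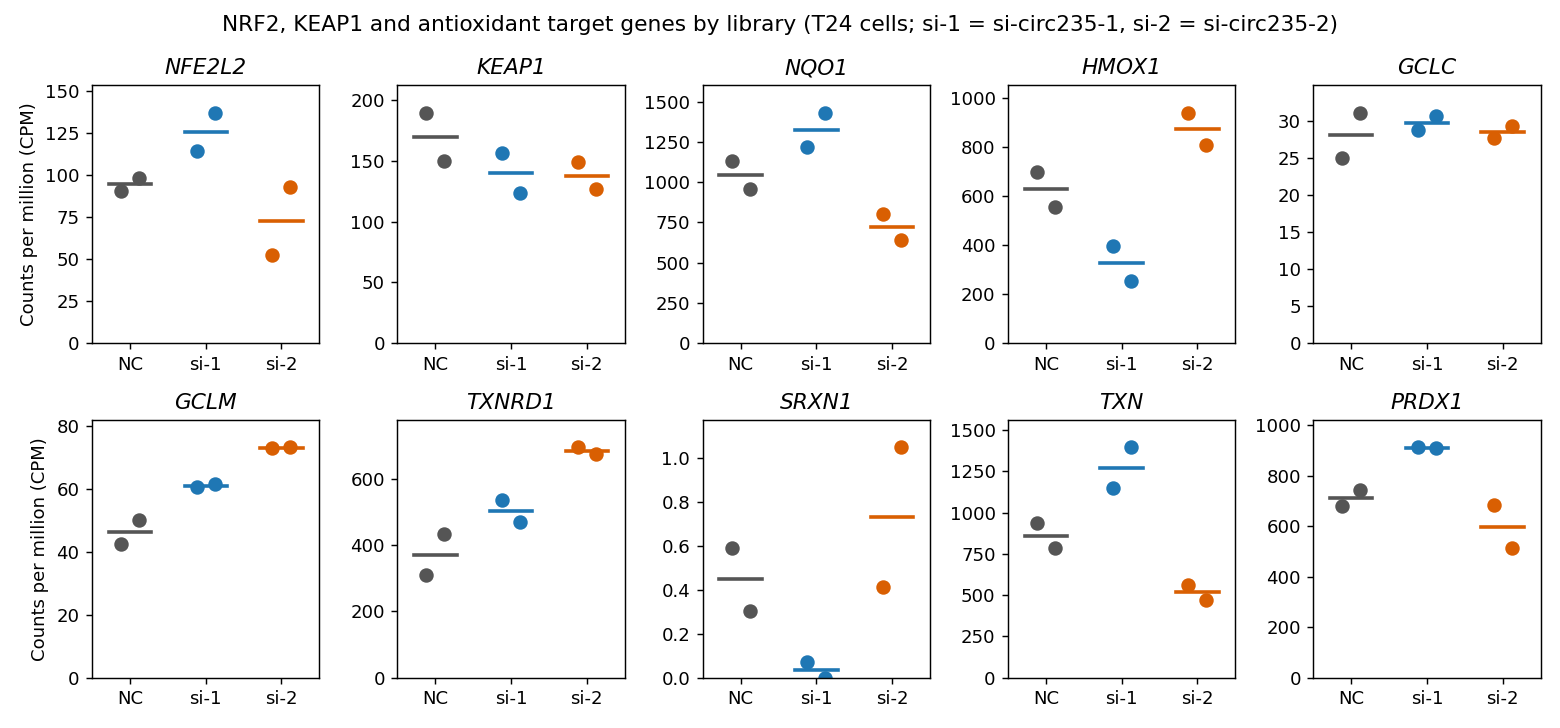
CPM of each gene (linear axes from 0) in each of the 6 libraries, points, with the mean of the 2 libraries of a condition as a line. HMOX1 is lowest in both si-circ235-1 libraries (254 and 395 CPM) and highest in both si-circ235-2 libraries (810 and 941 CPM), TXN and NQO1 run the other way, and the 3 groups of TXNRD1 and GCLM do not overlap. How many of all genes tested separate likewise is not given. Between the siRNAs, 21.1% of all genes tested were called higher and 18.6% lower.

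NFE2L2 and KEAP1, the factor and its sensor, came first. NFE2L2 (chr2:177227595-177392697, minus strand, positions of genes from GENCODE release 29 on GRCh38) had 90.2 and 98.3 CPM in NC, 114 and 137 in si-circ235-1, and 52.0 and 93.0 in si-circ235-2. Both si-circ235-1 libraries lay above NC, whereas the si-circ235-2 libraries differed widely and overlapped NC. The log2 fold change against NC was 0.42 ± 0.25 (SE) for si-circ235-1 (adjusted p = 0.332) and -0.38 ± 0.25 for si-circ235-2 (adjusted p = 0.279). Between the siRNAs NFE2L2 was lower in si-circ235-2 by a log2 fold change of -0.79 ± 0.25 (adjusted p = 0.0284).

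That call for NFE2L2 was lost without any 1 of 3 libraries, with another scaling and with 2 conditions only (-0.76, adjusted p = 0.0795). Without si-circ235-2 replicate 1 the value was -0.44 (adjusted p = 0.229), without si-circ235-2 replicate 2 it was -1.27, and without TMM factors it was -0.44 (adjusted p = 0.225). It was also lost without si-circ235-1 replicate 1 (-0.92, adjusted p = 0.0556) and without si-circ235-1 replicate 2 (-0.66, adjusted p = 0.164). NFE2L2 shares 1054 exon bases with AC019080.1 on the same strand, a gene with at most 48 counts in a library. Reads that fit both may have been left uncounted or split. On the opposite strand, NFE2L2 shares 190 exon bases with AC079305.1 (at most 18 counts) and 54 with AGPS (38.4 to 49.0 CPM). Without strand information, reads there cannot be assigned to 1 gene.

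KEAP1 (chr19:10486120-10503741, minus strand) was measured at 190 and 150 CPM in NC, 157 and 124 in si-circ235-1, and 149 and 127 in si-circ235-2. The groups overlapped, except that both si-circ235-2 libraries lay just below NC. Its log2 fold change was -0.27 ± 0.20 (adjusted p = 0.442) for si-circ235-1 and -0.30 ± 0.20 (adjusted p = 0.291) for si-circ235-2. Between the siRNAs the estimate was -0.02, with a 95% interval from -0.47 to 0.43.

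GCLC and GCLM encode the catalytic and the modifier subunit of glutamate-cysteine ligase, the enzyme that makes the first committed step of glutathione synthesis. GCLM (chr1:93885205-93909456, minus strand) had 42.6 and 50.3 CPM in NC, 60.6 and 61.7 in si-circ235-1, and 73.1 and 73.3 in si-circ235-2. The 3 groups did not overlap, with si-circ235-1 between NC and si-circ235-2. GCLM rose by a log2 fold change of 0.66 ± 0.18 in si-circ235-2 against NC, or 1.57-fold (adjusted p = 0.0196). In si-circ235-1 it was 0.40 ± 0.18 (adjusted p = 0.198), and the siRNAs differed by 0.26 ± 0.18 (adjusted p = 0.271).

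The call for GCLM in si-circ235-2 was lost when NC replicate 1 (0.53, adjusted p = 0.158), si-circ235-2 replicate 1 (0.65, adjusted p = 0.0599) or si-circ235-2 replicate 2 (0.65, adjusted p = 0.0664) was left out. The fold change itself ran from 0.53 to 0.90 over the 12 alternative settings. GCLM thus stayed above NC in each of them.

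GCLC (chr6:53497341-53616970, minus strand) stood beside it at 25.0 and 31.1 CPM in NC, 28.8 and 30.7 in si-circ235-1, and 27.7 and 29.3 in si-circ235-2. All groups overlapped. The estimates were 0.09 (95% interval -0.37 to 0.54) in si-circ235-1 and 0.02 (-0.43 to 0.48) in si-circ235-2 against NC, and -0.06 (-0.52 to 0.39) between the siRNAs. Their signs changed with the setting, and once the dependence on length and GC content was taken out GCLC was called lower in si-circ235-2 than in si-circ235-1 (-0.47, adjusted p = 0.0311).

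NQO1, an enzyme that reduces quinones with NADH or NADPH and a standard readout of NRF2 activity, is at chr16:69706996-69726951 (minus strand). It had 1131 and 961 CPM in NC, 1221 and 1434 in si-circ235-1, and 804 and 642 in si-circ235-2. The 3 groups did not overlap, with si-circ235-1 above NC and si-circ235-2 below. NQO1 was lower in si-circ235-2 than in si-circ235-1 by a log2 fold change of -0.88 ± 0.23 (adjusted p = 0.0115).

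Against NC neither siRNA passed the test for NQO1, with 0.34 ± 0.23 (adjusted p = 0.376) in si-circ235-1 and -0.53 ± 0.23 (adjusted p = 0.0954) in si-circ235-2. The second was called by DESeq2 (-0.53, adjusted p = 0.0367) and once the length and GC dependence was taken out (-0.79, adjusted p = 0.0132). The difference between the siRNAs no longer passed without si-circ235-1 replicate 2 (-0.76, adjusted p = 0.0926) or without si-circ235-2 replicate 2 (-0.72, adjusted p = 0.0767).

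HMOX1 (chr22:35380361-35394214, plus strand) encodes heme oxygenase 1, which opens heme to biliverdin, iron and carbon monoxide. It had 699 and 556 CPM in NC, 395 and 254 in si-circ235-1, and 941 and 810 in si-circ235-2. No groups overlapped, and the order of the conditions was the reverse of that of NQO1. HMOX1 was higher in si-circ235-2 than in si-circ235-1 by 1.43 ± 0.25 on the log2 scale, or 2.70-fold (adjusted p = 0.00182). This was the widest span of condition means among the 9 genes.

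The difference of HMOX1 between the siRNAs was called under each of the 12 alternatives, with values from 1.14 to 1.78. Against NC, si-circ235-1 gave -0.95 ± 0.25 (adjusted p = 0.0508), just outside the threshold. It was inside the threshold in 8 of the 12 alternatives, among them DESeq2 (-0.93, adjusted p = 0.00384) and the fit with the replicate number as a block (-0.97, adjusted p = 0.0284), and the values ran from -1.31 to -0.66. In si-circ235-2 against NC the estimate was 0.48 ± 0.25 (adjusted p = 0.163), called without TMM factors (0.74, adjusted p = 0.027) and with the length and GC dependence out (0.95, adjusted p = 0.00629).

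**Figure D2:**
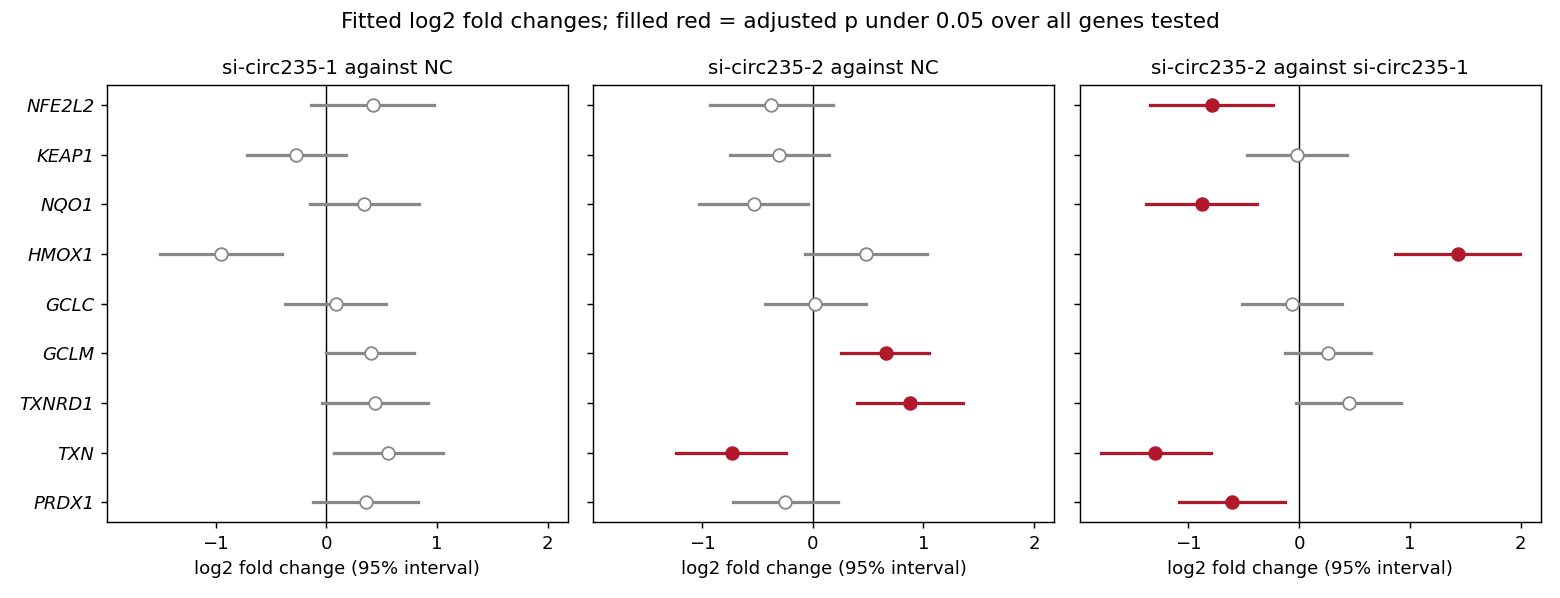
Fitted log2 fold changes (x axis, points) with 95% intervals (lines) of the 9 genes tested, for the 3 comparisons of conditions. Filled red points passed an adjusted p under 0.05: 0 genes in the left panel, 3 in the middle one and 5 in the right one.

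The thioredoxin branch held TXN, TXNRD1, PRDX1 and SRXN1. TXNRD1 (chr12:104215779-104350305, plus strand) encodes the cytosolic reductase that keeps thioredoxin reduced with NADPH. It had 311 and 433 CPM in NC, 536 and 471 in si-circ235-1, and 696 and 676 in si-circ235-2. As with GCLM, the 3 groups did not overlap, and si-circ235-1 lay between the others. TXNRD1 rose by 0.88 ± 0.22 in si-circ235-2 against NC, or 1.84-fold (adjusted p = 0.0125).

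In si-circ235-1 TXNRD1 had a log2 fold change of 0.44 ± 0.22 (adjusted p = 0.237), and the siRNAs differed by 0.45 ± 0.22 (adjusted p = 0.125). The rise in si-circ235-2 was lost without NC replicate 1 (0.66, adjusted p = 0.132) and with the length and GC dependence out (0.39, adjusted p = 0.0743). In that setting the difference between the siRNAs turned to -0.05. The longest transcript of TXNRD1 has 4277 bases.

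TXN (chr9:110243811-110256640, minus strand) encodes thioredoxin, the small protein that TXNRD1 reduces. It had 935 and 785 CPM in NC, 1147 and 1395 in si-circ235-1, and 563 and 470 in si-circ235-2. TXN lay above NC in both si-circ235-1 libraries and below NC in both si-circ235-2 libraries, opposite to its reductase in the latter. It fell by 0.73 on the log2 scale in si-circ235-2 against NC (SE 0.22, adjusted p = 0.0289), and it was lower in si-circ235-2 than in si-circ235-1 by -1.30 ± 0.23, or 2.46-fold (adjusted p = 0.0017).

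The difference of TXN between the siRNAs was called under each of the 12 alternatives, from -1.44 to -0.86. Its fall against NC was lost without TMM factors (-0.47, adjusted p = 0.0649), without NC replicate 1 (-0.61, adjusted p = 0.186) and without si-circ235-2 replicate 2 (-0.61, adjusted p = 0.159). In si-circ235-1 against NC the estimate was 0.56 ± 0.22 (adjusted p = 0.144), which DESeq2 called (0.59, adjusted p = 0.0479). The 7 genes whose names mark them as pseudogenes of TXN had at most 6 counts in a library, so few reads were assigned to them.

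PRDX1 (chr1:45511036-45523047, minus strand) encodes a peroxiredoxin that reduces hydrogen peroxide and is recycled by thioredoxin. It had 679 and 742 CPM in NC, 912 and 910 in si-circ235-1, and 684 and 512 in si-circ235-2. The si-circ235-1 libraries lay above the others, and si-circ235-2 overlapped NC. Against NC the log2 fold changes were 0.36 ± 0.22 (adjusted p = 0.331) and -0.25 ± 0.22 (adjusted p = 0.41), and si-circ235-2 was lower than si-circ235-1 by -0.61 ± 0.22 (adjusted p = 0.045).

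The call for PRDX1 was lost in 7 of the 12 alternatives, among them without TMM factors (-0.28, adjusted p = 0.269), with the length and GC dependence out (-0.40, adjusted p = 0.0657) and without si-circ235-2 replicate 2 (-0.41, adjusted p = 0.305). PRDX1 shares 379 exon bases with MMACHC on the opposite strand, a gene at 7.48 to 13.8 CPM.

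SRXN1 (chr20:646615-653370, minus strand) encodes sulfiredoxin, which repairs over-oxidized peroxiredoxins. It had 9 and 5 counts in NC, 1 and 0 in si-circ235-1, and 7 and 22 in si-circ235-2. These counts are too few for the reported fit, and no fold is given because si-circ235-1 held 1 count in all. Of the 12 alternatives, 7 kept SRXN1, and 6 of these called it higher in si-circ235-2 than in si-circ235-1, with adjusted p from 0.0058 without a filter to 0.0474 in DESeq2. It was not called without si-circ235-1 replicate 2 (adjusted p = 0.123), and none of the 7 called it in either siRNA against NC (lowest adjusted p = 0.0987 and 0.463). SRXN1 shares 2292 exon bases with AL121758.1 on the same strand, a gene with at most 2 counts in a library, so reads that fit both may have been left uncounted or split.

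Per kilobase of the longest transcript, TXN was the most abundant of the 10 mRNAs in NC, with a mean level of 989 CPM per kilobase, followed by PRDX1 with 576. NQO1 and HMOX1 came next with 359 and 344, and their libraries overlapped. TXNRD1 had 87.0, KEAP1 57.4, NFE2L2 33.0, GCLM 9.57, GCLC 7.36 and SRXN1 0.166, with no overlap between neighbours. In si-circ235-2 HMOX1 stood at 481, beside PRDX1 at 485, and the libraries of TXN, at 595, overlapped those of PRDX1. In si-circ235-1 HMOX1 stood at 178 per kilobase, below NQO1 at 456.

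**Figure D3:**
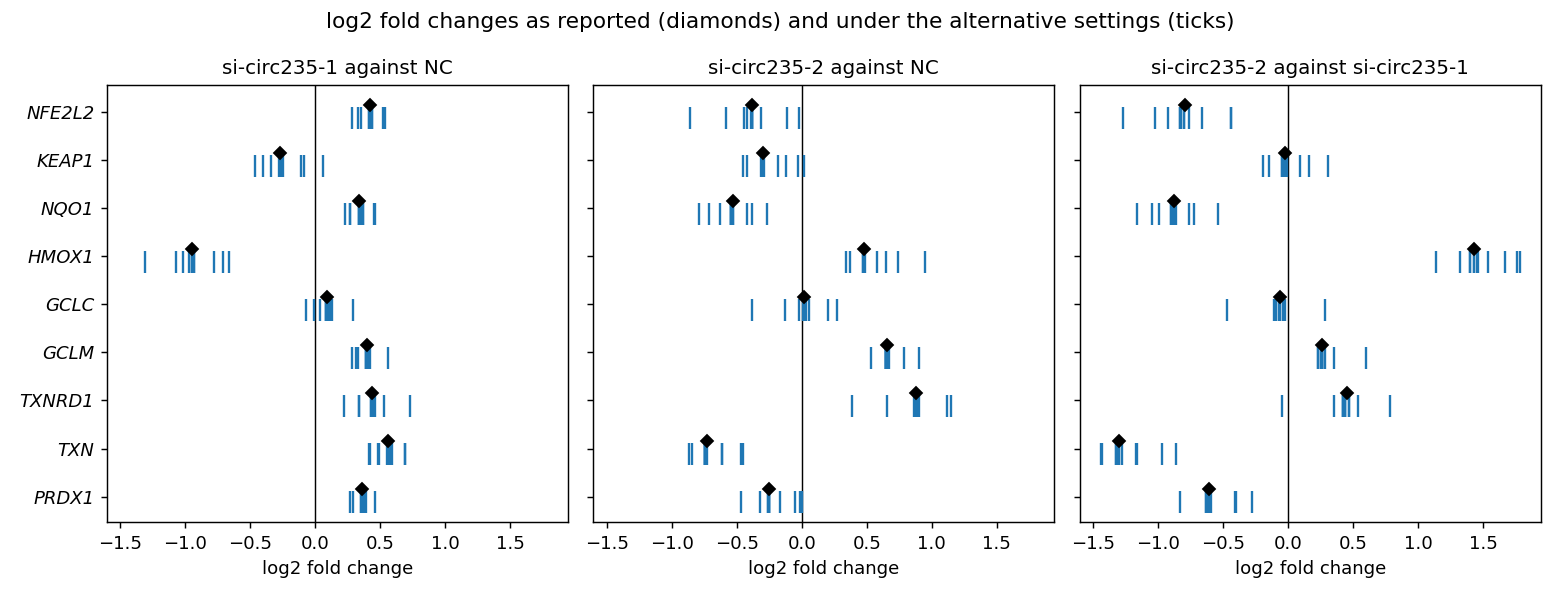
The log2 fold change of each gene as reported (black diamonds) and under each alternative setting (blue ticks), for the 3 comparisons. HMOX1 and TXN keep their sides of 0 in every setting drawn, while the ticks of KEAP1 and GCLC fall on both sides of 0.

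The genes around the 10 were taken from 6 lists of the same pathways, described by counts and medians. The background for these counts was 15.7% called higher and 15.7% lower over all genes tested in si-circ235-2 against NC. It was 2.24% and 3.64% in si-circ235-1 against NC, and 21.1% and 18.6% in si-circ235-2 against si-circ235-1. Among 14 regulators of NRF2 turnover and its partners, all tested, 6 rose and 1 fell in si-circ235-2 against NC, and 1 rose in si-circ235-1. The list's median log2 fold change was 0.60 and 0.21, beside medians over all genes of 0 and -0.03. GSK3B, a kinase that marks NRF2 for a KEAP1-independent ligase, was called higher in both, by 1.43 (adjusted p = 0.00179) and 1.14 (adjusted p = 0.0119). It had 39.6 and 49.7 CPM in NC, 103 and 93.2 in si-circ235-1, and 117 and 123 in si-circ235-2.

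NFE2L1, a relative of NRF2 that drives proteasome genes, rose by 1.41 in si-circ235-2 against NC (adjusted p = 0.00232). CUL3, the scaffold of the KEAP1 ligase, had 22.5 and 39.8 CPM in NC, 30.6 and 19.3 in si-circ235-1, and 59.6 and 67.9 in si-circ235-2. RBX1, the ring subunit of the same ligase, fell in si-circ235-2 by 0.92 on the log2 scale (adjusted p = 0.0152). Between the siRNAs both were called, with CUL3 higher by 1.36 (adjusted p = 0.00487) and RBX1 lower by -1.39 (adjusted p = 0.00165) in si-circ235-2 than in si-circ235-1. CUL3 was also called higher in si-circ235-2 against NC, by 1.03 (adjusted p = 0.0219), so these subunits of the ligase went in opposite directions.

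BACH1 had 14.0 and 17.2 CPM in NC, 21.3 and 28.1 in si-circ235-1, and 6.02 and 14.6 in si-circ235-2. Its libraries were highest in si-circ235-1, where those of HMOX1 were lowest, while its si-circ235-2 libraries overlapped NC. A link between BACH1 and HMOX1 was not tested. BACH1 was lower in si-circ235-2 than in si-circ235-1 by -1.25 ± 0.36 (adjusted p = 0.0187), while neither comparison with NC was called. MAFK, one of the small MAF partners, was higher by 1.58 in the same comparison (adjusted p = 0.00588), with 13.6 and 5.30 CPM in si-circ235-1 and 27.8 and 28.3 in si-circ235-2.

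Of 33 genes of glutathione synthesis and use, 29 were tested. With si-circ235-2, 2 rose and 11 fell against NC, with a median of -0.54. In si-circ235-1, 3 rose and 0 fell by edgeR and by DESeq2 (2 fell at an unadjusted edgeR p under 0.05), with a median of 0.24, and between the siRNAs 3 were higher and 15 lower in si-circ235-2. GPX1 and GPX4, peroxidases that use glutathione, fell in si-circ235-2 by -1.41 (adjusted p = 0.00917) and -1.30 (adjusted p = 0.00848). The NC libraries themselves differed widely for them, with 1849 and 967 CPM for GPX1.

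GSTO1, a glutathione transferase, rose in si-circ235-1 by 1.23 (adjusted p = 0.0181), and GLRX2, a mitochondrial glutaredoxin, by 0.99 (adjusted p = 0.0316). ABCC1, which exports glutathione conjugates, rose in si-circ235-2 by 1.57 (adjusted p = 0.00405), with 11.2 and 18.3 CPM in NC and 44.7 and 43.1 in si-circ235-2. ABCC3, another such exporter, was higher in si-circ235-2 than in si-circ235-1 by 0.71 (adjusted p = 0.0169). Against NC, ABCC3 was not called in si-circ235-2 (0.11, adjusted p = 0.705).

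In the thioredoxin and peroxiredoxin list, 16 of 17 genes were tested. Against NC, 0 rose and 9 fell in si-circ235-2 by edgeR and by DESeq2 (3 rose at an unadjusted edgeR p under 0.05), with a median of -0.73, and between the siRNAs 1 was higher and 11 were lower in si-circ235-2. PRDX5, a peroxiredoxin of mitochondria and peroxisomes, fell by -1.71 against NC (adjusted p = 0.00435), with 913 and 431 CPM in NC, 624 and 764 in si-circ235-1, and 233 and 178 in si-circ235-2. TXNDC9, a thioredoxin-like protein, fell by -1.19 (adjusted p = 0.00889). In si-circ235-1 1 gene rose and 1 fell, PRDX4 of the endoplasmic reticulum by 1.22 (adjusted p = 0.0151) and cytosolic PRDX2 by -1.02 (adjusted p = 0.0193). PRDX2 was also called lower in si-circ235-2 against NC, by -1.14 (adjusted p = 0.00348), whereas PRDX4 was not called there (-0.01, adjusted p = 0.986).

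Among 18 tested of 21 other NRF2 targets and genes of NADPH, quinone and carbonyl metabolism, 1 rose and 6 fell in si-circ235-2 against NC, and 2 rose and 0 fell in si-circ235-1 (1 fell at an unadjusted edgeR p under 0.05, and 0 in DESeq2). TALDO1, of the pentose phosphate pathway, fell by -1.36 in si-circ235-2 (adjusted p = 0.00396), and EPHX1, an epoxide hydrolase, by -1.02 (adjusted p = 0.00552). IDH1, a cytosolic source of NADPH, was called higher in both siRNAs, by 0.84 (adjusted p = 0.0358) and 0.97 (adjusted p = 0.00574). NQO2, the relative of NQO1, had 89.7 and 71.8 CPM in NC, 139 and 160 in si-circ235-1, and 50.3 and 42.1 in si-circ235-2, and differed between the siRNAs by -1.70 (adjusted p = 0.000491).

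For heme and iron, 8 of 10 genes were tested. Against NC, 2 rose and 5 fell in si-circ235-2, while edgeR called 0 of 8 in si-circ235-1, where 1 higher and 2 lower genes had an unadjusted p under 0.05 by the same edgeR test and DESeq2 called 1 higher and 2 lower. TFRC, the transferrin receptor, rose by 1.15 (adjusted p = 0.00242) and FECH, which inserts iron into heme, by 0.74 (adjusted p = 0.012). SLC48A1, a heme transporter, fell by -1.06 (adjusted p = 0.00507) and FTL, the ferritin light chain and a target of NRF2, by -0.81 (adjusted p = 0.0446). In si-circ235-1 against NC, not called, FTL had -0.99 (adjusted p = 0.0582) and SLC48A1 -0.64 (adjusted p = 0.0912). FTL was not called between the siRNAs (0.19, adjusted p = 0.608). BLVRA and BLVRB, the biliverdin reductases that act after HMOX1, were lower in si-circ235-2 than in si-circ235-1 by -1.21 (adjusted p = 0.00225) and -1.49 (adjusted p = 0.00155), where HMOX1 was higher.

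Of 10 superoxide and hydrogen peroxide enzymes outside the NRF2 core, 6 were tested, of which 1 rose and 2 fell in si-circ235-2 against NC and 1 rose in si-circ235-1. SOD2, the mitochondrial superoxide dismutase, rose in both siRNAs, by 1.23 in si-circ235-1 (adjusted p = 0.0156) and 0.97 in si-circ235-2 (adjusted p = 0.0092), with 961 and 976 CPM in NC, 2143 and 2392 in si-circ235-1, and 2015 and 1770 in si-circ235-2. SOD1, the cytosolic one, fell in si-circ235-2 by -0.93 (adjusted p = 0.0101). CYBA, a subunit of NADPH oxidases, fell by -2.04 (adjusted p = 0.00265), with 2005 and 984 CPM in NC and 417 and 308 in si-circ235-2.

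**Figure D4:**
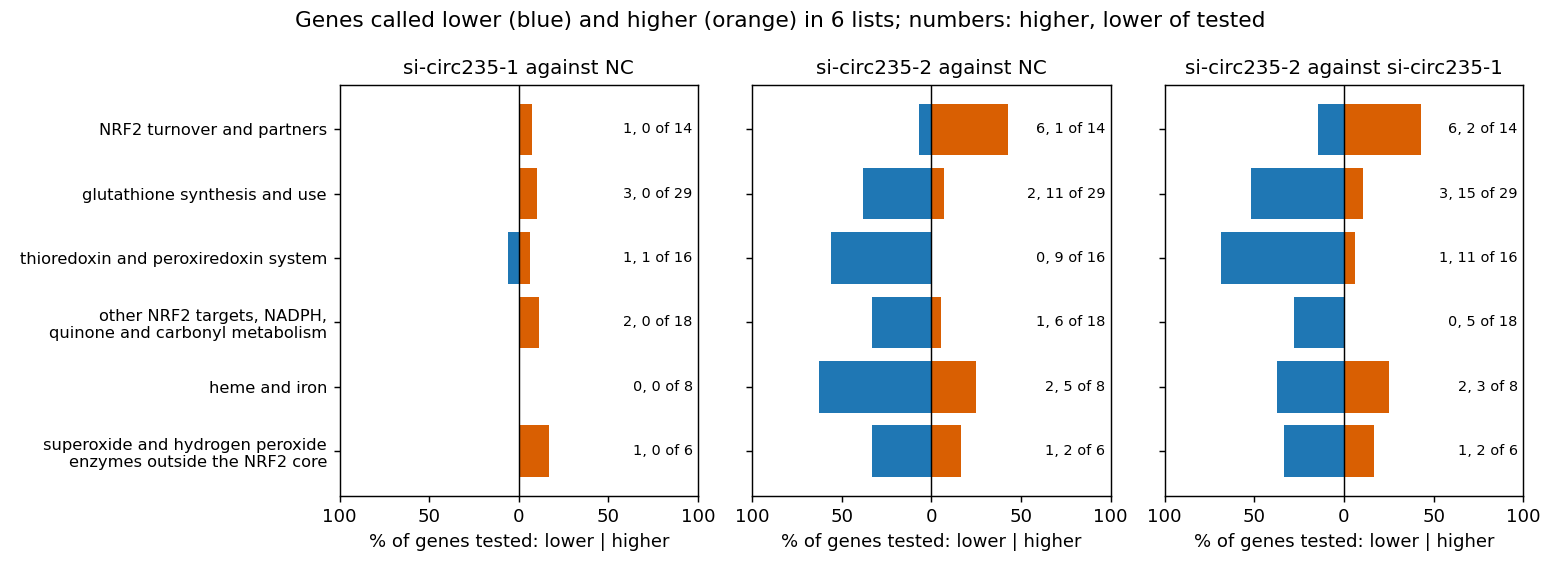
Share of the genes tested in each of 6 lists that were called lower (blue, to the left) and higher (orange, to the right) in the 3 comparisons, with the counts printed as higher, lower of tested. In the middle panel, si-circ235-2 against NC, the thioredoxin list has 0 higher and 9 lower of 16, and the NRF2 turnover list 6 higher and 1 lower of 14. Over all genes tested, 15.7% were called higher and 15.7% lower in that comparison.

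These list counts depended on 1 control library, on the scaling and, for some lists, on the length and GC dependence. Without NC replicate 1, si-circ235-2 against NC had 432 genes called higher and 337 lower over all genes, and the glutathione list had 0 of 29 genes called and the thioredoxin list 0 higher and 2 lower. Without TMM factors the glutathione list had 2 higher and 5 lower and the thioredoxin list 2 higher and 7 lower in that comparison, with medians of -0.27 and -0.47 beside 0.25 over all genes. The heme and iron list there had 2 higher and 1 lower. With the length and GC dependence out, the thioredoxin list had 0 higher and 6 lower and the heme and iron list 1 and 2. The glutathione list kept 2 higher and 11 lower.

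With both siRNAs taken as 1 group against NC, edgeR called 0 of the 9 genes, and the background was also 0.0% of all genes tested. At an unadjusted edgeR p under 0.05 there were 1379 genes, 1 of them a member, GCLM, with a log2 fold change of 0.53 ± 0.23 (adjusted p = 0.517). DESeq2 called 87 genes and 0 of the members. TXNRD1 had 0.68 ± 0.30 (adjusted p = 0.532), the largest pooled value of the set. For HMOX1 and TXN, whose siRNA groups lay on either side of NC, the pooled values were -0.06 (95% interval -1.27 to 1.14) and 0.06 (-1.05 to 1.16). The pooled fit counts the difference between the siRNAs as spread. With the average of the 2 siRNA means set against NC instead, edgeR called 674 genes higher and 733 lower, and 0 of the 9.

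The genes most like NFE2L2 over the 6 libraries, by the root mean square difference of log2 CPM centred on each gene's mean, were ORC4 (0.07), TMX1 (0.076) and BNIP2 (0.076). ORC4 had 32.6 and 35.6 CPM in NC, 38.4 and 43.2 in si-circ235-1, and 17.9 and 32.5 in si-circ235-2, with the same low first si-circ235-2 library. For HMOX1 they were CCNA1 (0.079), SLC38A7 (0.086) and RNPS1P1 (0.099), of which CCNA1 and RNPS1P1 had at most 2.30 and 1.06 CPM. SLC38A7 had 58.5 and 50.7 CPM in NC, 34.8 and 24.7 in si-circ235-1, and 75.9 and 71.5 in si-circ235-2. With 6 libraries of 3 conditions this is a description of likeness only.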

How the data were processed

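For each of 6 libraries the authors deposited raw read counts per gene, whole numbers with no normalization. The submitters' processing notes name hg38, FastQC, cutadapt and STAR, with the counter and annotation not given in the sources used here. Sequencing was not strand-specific, so reads of overlapping genes can go to either gene.

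edgeR 4.0.16 under R 4.3.3 fitted 1 mean per condition to the 14415 genes that filterByExpr kept, with TMM factors and the quasi-likelihood test. P-values were adjusted by Benjamini-Hochberg over those genes and called under 0.05. CPM are counts per 1000000 after TMM scaling. Gene positions, lengths and 3' UTRs came from GENCODE release 29, in which 99.5% of the identifiers were found. Alternatives were DESeq2 1.42.0, no TMM factors, a smooth dependence on transcript length and GC content (splines with 5 degrees of freedom) taken out of each library, no filter, 2 conditions only, the replicate number as a block, a fold of at least 1.5 and each library left out. For both siRNAs together, the setting of 2 conditions only was replaced by the average of the 2 siRNA means against NC.

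The members and lists were chosen with earlier results of these data known. All members are named, and from each list the up to 2 largest rises and falls called per comparison with a mean of at least 5 CPM. The likeness rule takes 3 genes each for NFE2L2 and for the member of widest span. Tested on simulated data with 200 of 14415 genes changed, edgeR recovered 37.5% (first siRNA against NC), 13% (second against NC) and 30.5% (between siRNAs) of log2 changes of 1, and 84.5%, 80.5% and 84% of log2 changes of 2. In the data 847, 4530 and 5725 genes were called in these comparisons. The recovered shares depend on how many genes change, so they cannot be carried over to the data.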

Additional observations from a re-analysis of the deposited data

Results flagged for a closer look

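Of the 9 genes tested, 5 differed between the siRNAs, with values of si-circ235-2 minus si-circ235-1 on the log2 scale in edgeR's quasi-likelihood test. Over all genes tested, 21.1% were called higher and 18.6% lower there. The calls of NFE2L2 and PRDX1 were lost in several alternative settings. NFE2L2 had -0.79, NQO1 -0.88, TXN -1.30 and PRDX1 -0.61, while HMOX1 had 1.43. For HMOX1, TXN and NQO1 the libraries of the siRNAs lay on opposite sides of both NC libraries. For NFE2L2 and PRDX1 the si-circ235-2 libraries overlapped NC. As a description chosen after the values were seen, the count of HMOX1 over that of NQO1 in the same library, which needs no scaling between libraries, was 0.618 and 0.579 in NC, 0.324 and 0.177 in si-circ235-1, and 1.17 and 1.26 in si-circ235-2.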

How the results depend on the processing

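Of the 10 genes, SRXN1 counted where a setting kept it, in si-circ235-1 against NC, 2 were called with DESeq2 and 1 without TMM factors, with the length and GC dependence out, without a filter, with 2 conditions only and with the replicate number as a block, and leaving out a library gave 0 to 1. The gene was HMOX1, joined by TXN in DESeq2. In si-circ235-2 against NC leaving out a library gave 0 to 3 (0 without NC replicate 1), and between the siRNAs 2 to 5, or 2 to 4 of the 9 other than SRXN1 (2 without si-circ235-1 replicate 2, 3 without si-circ235-2 replicate 2). Pairing by the replicate number is not established, since correlations of the replicate differences between conditions were -0.094, 0.149 and 0.139, and the block changed no other call among the 9 genes tested. In the lists it moved counts of calls, among them the thioredoxin list in si-circ235-1 against NC from 1 to 3 higher. Values with a changed sign were never called in edgeR. They were KEAP1 0.06, 0.02 and, pooled, 0.04, GCLC -0.38 and, pooled, -0.13, TXNRD1 -0.05 between the siRNAs and HMOX1 0.35 pooled with that dependence out, GCLC -0.01 and 0.28, KEAP1 0.31, and pooled NQO1 0.02 and HMOX1 0.12 without TMM factors. Another was pooled TXN, -0.09 when the average of the 2 siRNA means was set against NC. Leaving out a library gave GCLC -0.07 to 0.29 and -0.13 to 0.20 in the siRNAs against NC, KEAP1 -0.19 to 0.16 between the siRNAs, and pooled GCLC -0.10 to 0.24, NFE2L2 -0.13 to 0.28, NQO1 -0.24 to 0.14, HMOX1 -0.37 to 0.18, TXN -0.24 to 0.27 and PRDX1 -0.02 to 0.23. The causes were not tested. Where 1 library of a condition was left out, the remaining one was assumed to vary like the others.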

Other observations

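Ratios of counts within a library, chosen after the values were seen, do not depend on the scaling between libraries, and they are given without a test. The count of TXNRD1 over that of TXN, its substrate, was 0.333 and 0.552 in NC, 0.467 and 0.338 in si-circ235-1, and 1.24 and 1.44 in si-circ235-2. The si-circ235-2 libraries stood above the other 4. Such ratios can still carry each library's dependence on transcript length and GC content. With that dependence out, si-circ235-2 against NC gave log2 fold changes of 0.39 for TXNRD1 and -0.45 for TXN. In the reported fit they were 0.88 and -0.73. The count of GCLM over that of GCLC, the modifier over the catalytic subunit, was 1.71 and 1.62 in NC, 2.10 and 2.01 in si-circ235-1, and 2.64 and 2.5 in si-circ235-2, so the 3 groups did not overlap. For NFE2L2 over KEAP1 the ratios were 0.475 and 0.657, 0.728 and 1.11, and 0.349 and 0.734, and the groups overlapped in part. The count of HMOX1 over that of BACH1 was 50 and 32.4 in NC, 18.6 and 9.06 in si-circ235-1, and 156 and 55.4 in si-circ235-2.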
